A study of Mus musculus with 12 samples.

Results

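The nuclear genes for subunits of the oxidative phosphorylation (OXPHOS) complexes were followed in 12 mouse lung carcinoma tumors. Members were picked by symbol alone (Nduf genes of the a, b, c, s and v series, Sdha to Sdhd, Uqcr genes, Cox4 to Cox8 genes and Atp5 genes), which gave 87 of the 34678 gene symbols in the tables. Of these 87, 36 were assigned by symbol to complex I, 4 to complex II, 8 to complex III, 18 to complex IV and 21 to complex V. A mean of at least 1 FPKM (a read level scaled by transcript length and sequencing depth) over the 12 tumors was reached by 81 members. From these, 3 muscle isoforms of complex IV (Cox6a2, Cox7a1, Cox8b) were set apart and 3 pseudogene symbols of the Atp5 family were only counted, so 75 genes are described by complex. The other 6 lay under 1 FPKM: Cox4i2, Atp5g2, Cox7b2, Cox6b2, Cox8c and a further Atp5 pseudogene.

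Complexes I to IV form the respiratory chain of the inner mitochondrial membrane, which passes electrons from NADH and succinate to oxygen and pumps protons, and complex V uses the proton gradient to make ATP. Complex II is built from nuclear genes alone, while the other complexes join nuclear subunits with a few encoded in mitochondrial DNA. Lewis lung carcinoma is a fast-growing mouse tumor line, and striated muscle and brown fat are the tissues best known for a high content of these complexes.

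The tumors grew under the skin of C57BL/6 mice aged 5 to 8 weeks from LLC1 cells (the Lewis lung carcinoma line) in which a short hairpin RNA silenced Lkb1, the kinase gene also called Stk11. Every arm carried the hairpin, so no tumor with intact Lkb1 stands beside them, and Stk11 itself lay at 10.6 ± 0.874 FPKM in the vehicle arm, 9.83 ± 0.390 in the palbociclib arm, 9.29 ± 1.39 in the anti-PD-1 arm and 10.1 ± 1.42 in the combination arm (mean ± SD, n = 3 each). The 4 arms of 3 tumors received vehicle with a control IgG, palbociclib (a CDK4/6 inhibitor, 100 mg/kg by mouth), an antibody against the checkpoint receptor PD-1 (200 µg per mouse) or both for 2 weeks. Mice were different animals in each arm, and the spread given here is that between tumors of an arm.

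In whole tumors, fewer cells of a type and less RNA per cell cannot be told apart. The epithelial keratin gene Krt8 read 62.0 to 276 FPKM, whereas Epcam, Krt18 and Krt19 reached at most 5.08 FPKM in any tumor. Summed FPKM of 19 skeletal muscle markers was 217 in palbociclib replicate 3, 203 in combination replicate 2, 73.0 in vehicle replicate 1 and at most 17.1 in the other tumors. For 9 adipocyte markers the sums were 1049 (combination replicate 1) and 436 FPKM (palbociclib replicate 1), with 2.28 to 42.9 elsewhere. Palbociclib replicate 2 alone held skin keratinocyte markers, with a summed 378 FPKM over 8 genes against at most 1.07 in any other tumor. Hypoxia genes (9 found of 10 listed) summed to 559 to 712 FPKM in vehicle replicates 2 and 3 and anti-PD-1 replicates 2 and 3, and to 98.6 to 252 in the other 8 tumors.

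As a pair that carries the contrast between ubiquitous and tissue-restricted subunits, the promoters of Cox8a, the general form of subunit VIII, and of Cox8b, its form in heart, skeletal muscle and brown fat, are given. Both come from RefSeq for GRCm38.p6, run from 250 bases before the gene start to 50 after it, and are read 5′ to 3′ on the gene's own (minus) strand at chr19:7217567-7217866 and chr7:140900397-140900696. Capitals mark the ETS core (CCGGAAG or its complement) in Cox8a and the E-box CAGCTG, a motif bound by myogenic factors, in Cox8b.
Cox8a: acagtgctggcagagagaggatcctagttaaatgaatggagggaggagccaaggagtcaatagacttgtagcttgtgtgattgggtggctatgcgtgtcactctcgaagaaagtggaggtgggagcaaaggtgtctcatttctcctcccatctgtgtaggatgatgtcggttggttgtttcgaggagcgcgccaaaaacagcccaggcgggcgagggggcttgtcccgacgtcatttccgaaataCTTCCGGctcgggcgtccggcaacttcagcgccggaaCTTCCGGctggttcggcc
Cox8b: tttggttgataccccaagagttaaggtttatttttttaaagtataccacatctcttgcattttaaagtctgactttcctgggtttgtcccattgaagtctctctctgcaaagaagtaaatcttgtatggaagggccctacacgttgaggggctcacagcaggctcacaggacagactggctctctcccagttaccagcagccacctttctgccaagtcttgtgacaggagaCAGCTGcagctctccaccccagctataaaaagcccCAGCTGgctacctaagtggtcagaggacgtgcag

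Each of the 2 promoters held 2 such matches. The same table held a promoter for 61 of the 75 described genes. The ETS core, searched on both strands, lay in 16 of these (26.2%) against 9.93% of the 27025 symbols with a promoter. The core of nuclear respiratory factor 1 (GCATGCGC), a regulator of respiratory genes, lay in 9 (14.8%), among them Ndufa8, Sdhb, Uqcr11, Cox6a1 and Atp5k, against 3.05%. The E-box lay in 5 (8.20%) against 18.3%, and the MEF2 motif in 0 against 3.70%. These are letters in a window, and no binding was measured.

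The members spanned more than 2 orders of magnitude in level. Cox8a, with a mean of 241 FPKM, and Atp5b, the catalytic beta subunit of ATP synthase, with 247 FPKM, headed complexes IV and V. Ndufa8 (an accessory subunit, 96.1 FPKM) headed complex I, Sdhd (a membrane anchor, 88.1) complex II and Uqcrfs1 (the Rieske iron-sulfur protein, 87.1) complex III. Median levels were 21.5 FPKM in complex I, 51.1 in complex II, 45.1 in complex III, 105 in complex IV and 30.6 in complex V.

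The lowest described members were Ndufb4 with a mean of 1.03 FPKM, Atp5sl with 1.38, Ndufb2 with 1.75, Atp5g1 with 2.89 and Cox7c with 2.95. Atp5sl, like Atp5s (3.73 FPKM), was counted with complex V by its symbol alone. Ndufb4, Ndufb2 and Cox7c encode single subunits of complexes whose other nuclear subunits were measured at levels 10 or more times higher in most cases, and Atp5g1 encodes the c-ring protein that Atp5g3 (55.4 FPKM) also encodes. How reads shared with near-identical copies of a gene were assigned is not given in the sources used here, so the levels of such low members are uncertain.

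**Figure D1:**
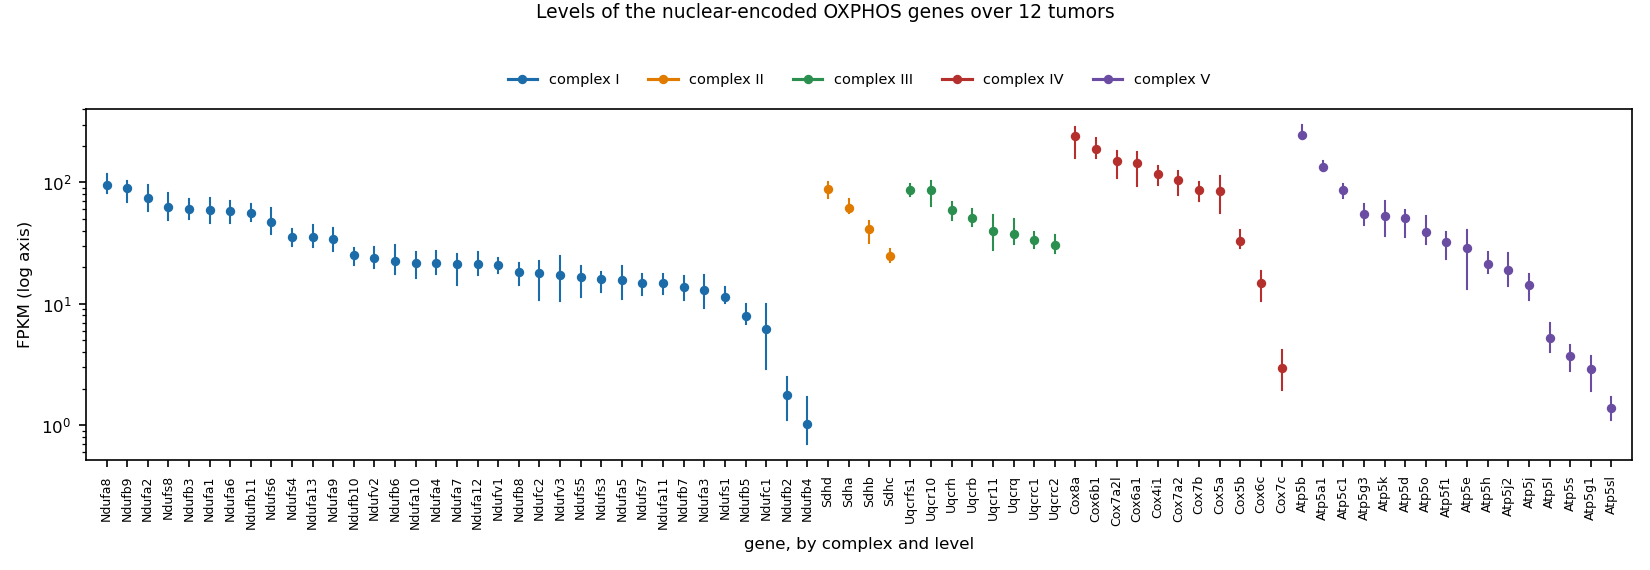
FPKM of 74 of the 75 described genes on a log axis, ordered by level within complexes I to V. Points are means over the 12 tumors and lines run from the lowest to the highest tumor. Most genes lie between 10 and 250 FPKM, and the lowest, Ndufb4, lies at 1.03.

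Over all 12 tumors the described genes varied little. The ratio of the highest to the lowest tumor had a median of 1.56, and ran from 1.21 to 3.46 (Ndufc1). Their summed FPKM made up 1.25% to 1.52% of all FPKM in a tumor. By arm the median share was 1.33% under vehicle, 1.42% under palbociclib, 1.30% under anti-PD-1 and 1.49% under the combination, and each treated arm overlapped the vehicle tumors.

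The tumors of an arm spread widely under palbociclib and less in the other arms. The median deviation of the 75 genes from their own means, in log2(FPKM + 0.1), was 0.04, -0.12 and -0.14 in the vehicle tumors, and -0.16, 0.02 and 0.24 in the palbociclib tumors. It was -0.13, -0.01 and -0.13 under anti-PD-1, and 0.17, 0.18 and 0.06 under the combination. Palbociclib tumors thus held both the lowest and the highest value of the series, and the combination tumors were the only arm with all 3 values above those of every vehicle tumor.

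**Figure D2:**
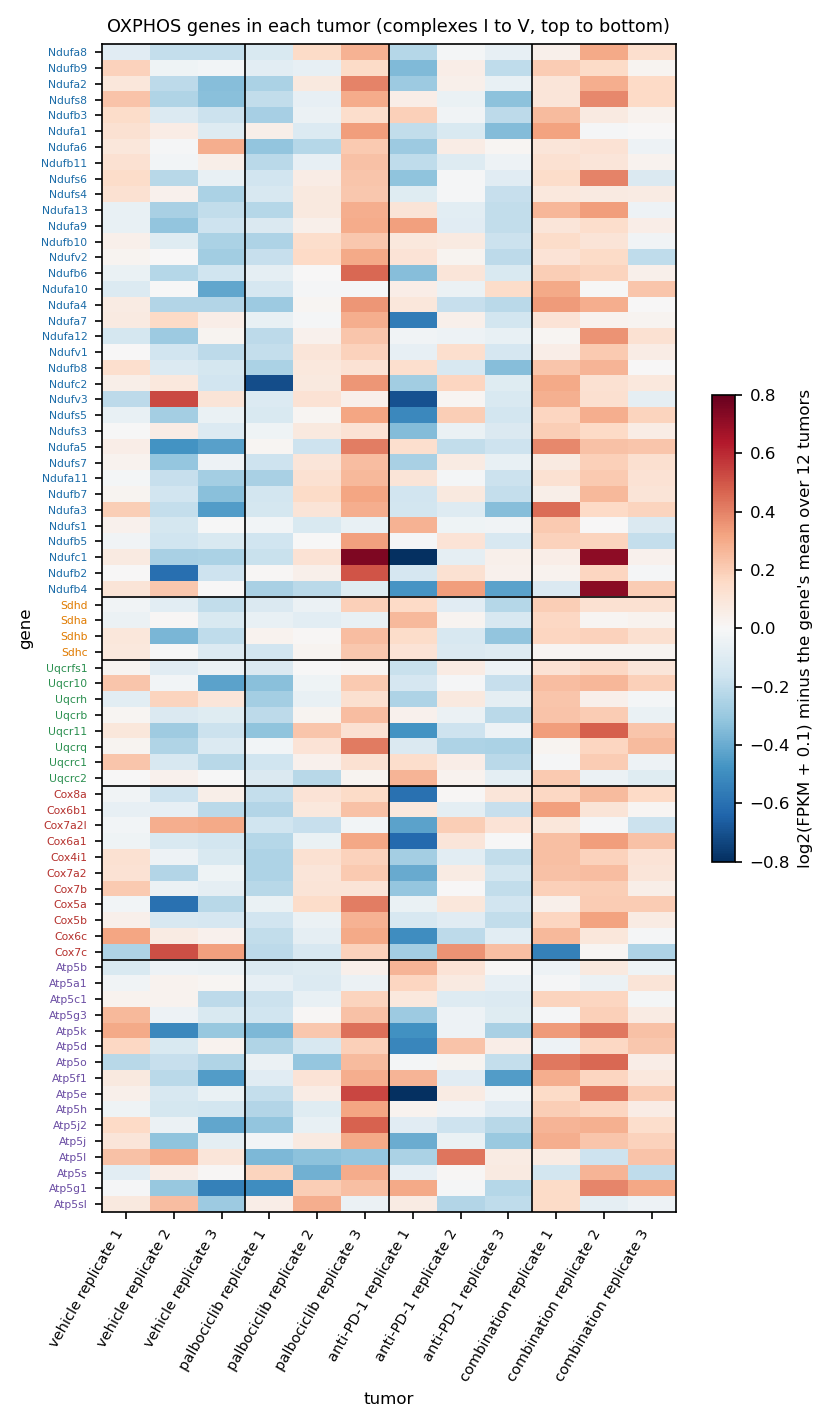
Deviation of 74 of the 75 described genes, each in log2(FPKM + 0.1), from the gene's mean over the 12 tumors (rows, complexes I to V from top to bottom; columns, tumors by arm; colors stop at 0.8 in either direction). Palbociclib replicate 3 and the 3 combination tumors are mostly red, palbociclib replicate 1 mostly blue, and anti-PD-1 replicate 1 is mixed, with its strongest blue in Ndufc1 and Atp5e.

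Palbociclib was compared in 2 ways with limma over 15350 genes (mean of at least 0.1 FPKM, Benjamini-Hochberg adjustment over all of them): against vehicle, and as the palbociclib effect, the mean of palbociclib minus vehicle and combination minus anti-PD-1. No member passed an adjusted p of 0.05 in any comparison, with 84 of the 87 members tested. Among all genes 0.313% passed in the palbociclib effect, 0.143% in palbociclib against vehicle, 0.013% in the combination against vehicle and 0% under anti-PD-1 or in the interaction. The lowest adjusted p of a described gene was 0.101, for Atp5j in the palbociclib effect.

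The described genes leaned upward in the palbociclib effect. Of 75, 66 had a log2 difference above 0, with a median of 0.16 beside 0.06 over all genes tested, of which 59.8% lay above 0. At an unadjusted p under 0.05, 20 tested members were higher, a share of 23.8% where all genes gave 14.1%, and 1 was lower (6.44% of all genes). Under quantile normalization the median fell to 0.09 and the count above 0 to 58, while the median of all genes turned to -0.03.

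Markers of immune cells, proliferation, skeletal muscle, fat and hypoxia also leaned to one side in this comparison. The median palbociclib effect was 1.42 over 6 T cell markers and 1.17 over 6 macrophage markers, with all 6 above 0 in each list, and -1.90 over 5 neutrophil markers, with 0 above 0. Summed T cell markers read 2.57 to 6.89 FPKM under vehicle, 8.01 to 15.95 under palbociclib, 2.03 to 4.76 under anti-PD-1 and 4.97 to 16.0 under the combination. In the same order macrophage sums were 110 to 578, 460 to 758, 127 to 441 and 334 to 767 FPKM, and neutrophil sums 31.4 to 538, 15.2 to 33.1, 47.1 to 276 and 14.1 to 88.5. All 8 proliferation markers lay above 0, with a median of 0.24, and their sums were 258 to 337, 355 to 371, 312 to 425 and 388.4 to 418 FPKM. All 18 tested skeletal muscle markers lay above 0, with a median of 1.31, as did all 9 adipocyte markers, with 2.83. Of the 9 hypoxia genes 0 did, with a median of -0.87. Other lists went both ways, with 2 of 5 endothelial, 2 of 4 epithelial cancer cell and 5 of 6 fibroblast markers above 0. Palbociclib replicate 3 and combination replicate 2, highest in muscle sums (217 and 203 FPKM), also had the highest member medians (0.24 and 0.18). Combination replicate 1, with a muscle sum of 2.63 FPKM, had a member median of 0.17. No marker of these lists passed the adjusted threshold by limma. The part of these cells and tissues, of proliferation or of hypoxia in the lean of the OXPHOS genes was not tested.

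In palbociclib against vehicle the median was 0.09, beside 0.07 over all genes, and 5 members were higher at an unadjusted p under 0.05 (9.43% of all genes) and 1 lower (4.36%). All 3 palbociclib tumors lay above all 3 vehicle tumors for 2 of the 84 members, Ndufb2 and a pseudogene, which is 2.38% against 12.9% of all genes, and below them for 4, Atp5a1, Atp5l, Cox7a2l and Ndufb4, against 6.47%. This comparison turned on single tumors: without palbociclib replicate 3 the median was -0.02, and without palbociclib replicate 1 the count of described genes above every vehicle tumor went from 1 to 26 of 75 (34.7%), while the share of all genes went from 12.9% to 20.9%.

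**Figure D3:**
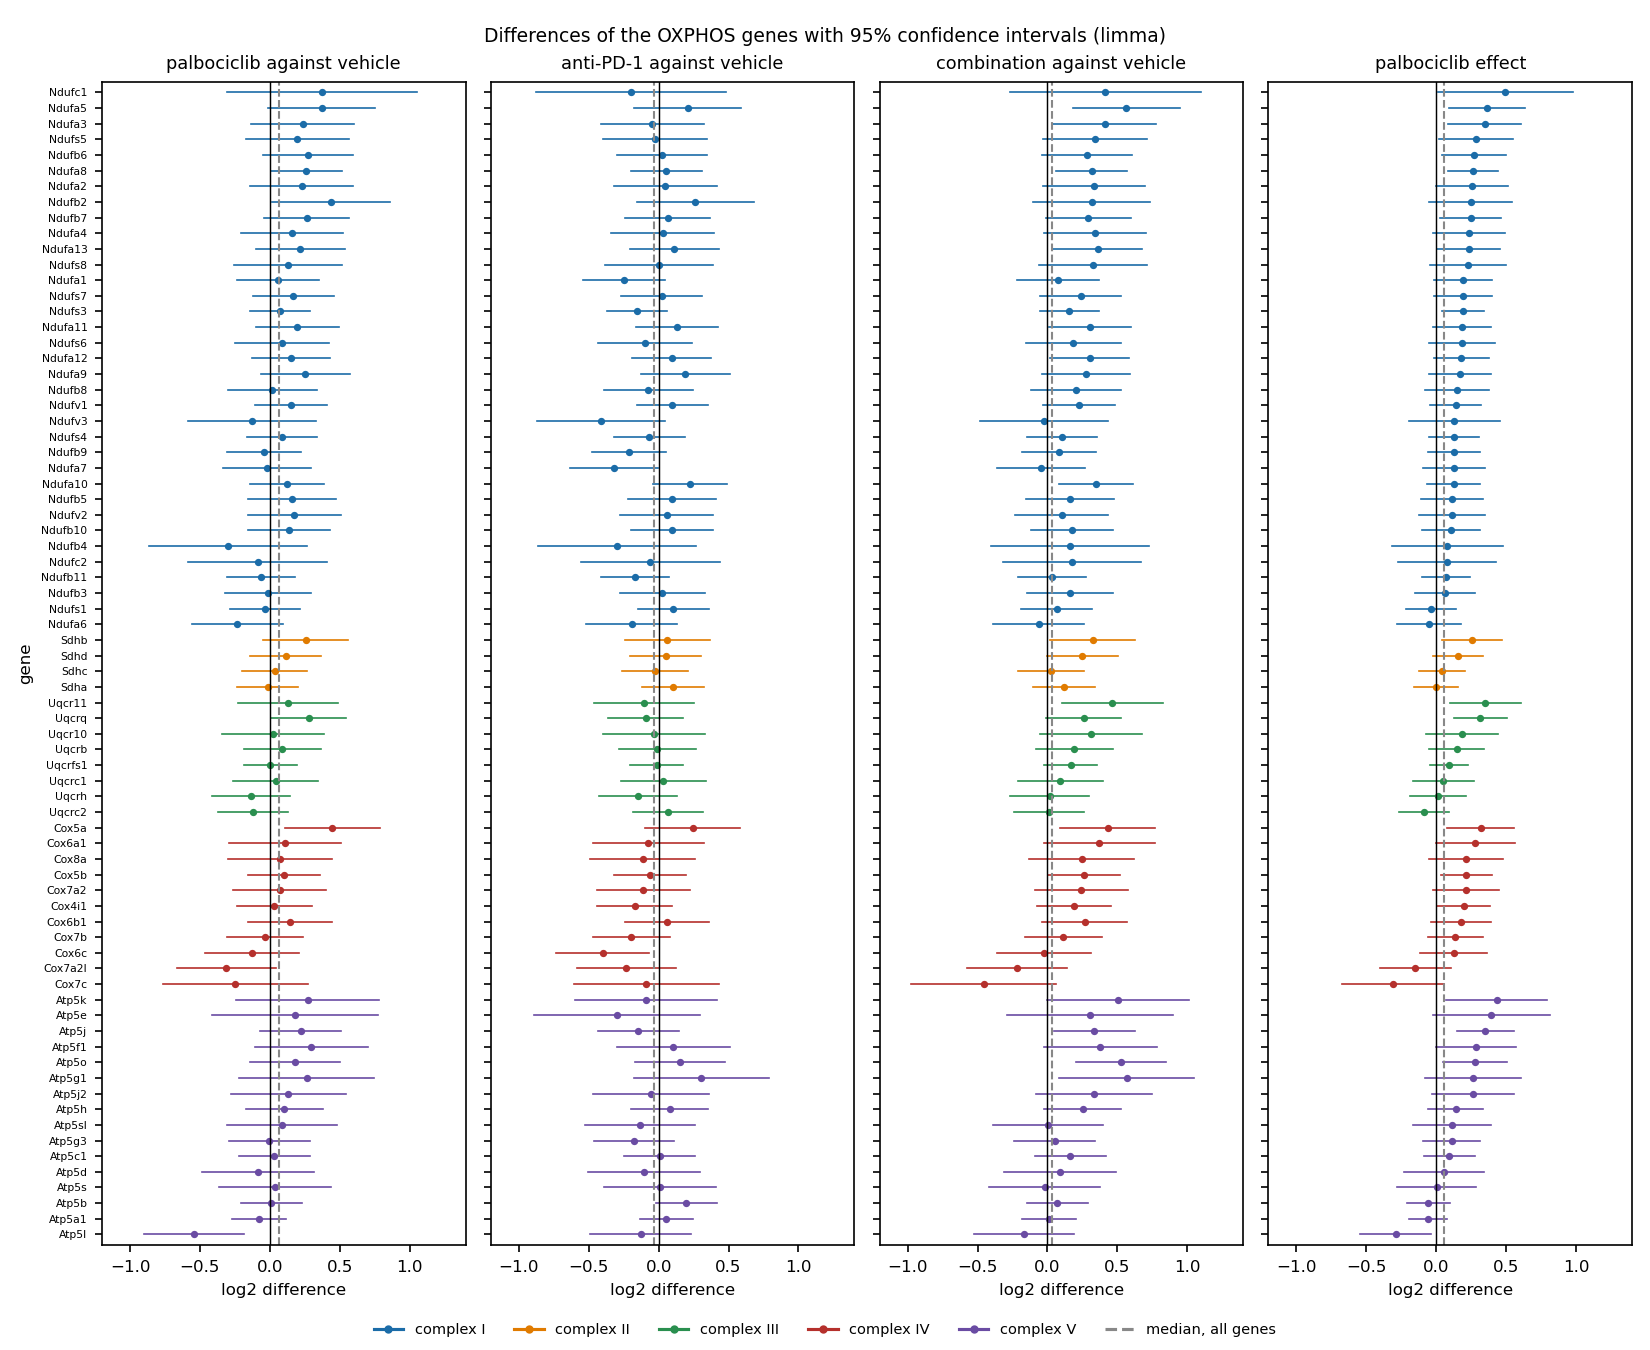
Log2 differences (points) with 95% confidence intervals (lines) of 74 of the 75 described genes in 4 comparisons by limma, ordered within each complex by the palbociclib effect. Dashed lines mark the median of all genes tested. Most points lie right of 0 in the combination and the palbociclib effect, but no gene passed the adjusted threshold.

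Among complex I genes, 34 of 36 lay above 0 in the palbociclib effect, with a median of 0.17. Ndufa8, the most abundant of them (chromosome 2, 36036326 to 36049406, GRCm38), read 89.6, 83.6 and 83.4 FPKM under vehicle and 87.8, 106 and 116 under palbociclib. With anti-PD-1 it read 81.4, 94.6 and 91.0, and under the combination 98.1, 118 and 105. All combination tumors, but only 2 of 3 palbociclib tumors, lay above the vehicle tumors, and the palbociclib effect was 0.26 ± 0.08 (SE, limma adjusted p = 0.132).

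Ndufc1, another accessory subunit, had the largest difference of complex I, 0.49 ± 0.22 (SE, limma adjusted p = 0.234). Its tumors read 6.26, 4.96 and 4.97 FPKM under vehicle, 5.24, 6.45 and 10.04 under palbociclib, 2.91, 5.66 and 6.11 under anti-PD-1 and 6.17, 9.84 and 6.10 under the combination. A high palbociclib and a high combination tumor and a low anti-PD-1 tumor set that value, and the arms overlapped. At the other end Ndufa6 had a difference of -0.05 with a 95% interval from -0.28 to 0.18.

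Ndufs1, the largest subunit of complex I and named after its values were seen, had a difference of -0.04 (95% interval -0.21 to 0.14). Ndufa4, counted with complex I by its symbol, is now placed in complex IV, and its difference was 0.24.

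Complex II, which also belongs to the citrate cycle, varied least, with the highest tumor at most 1.53 times the lowest for any of its genes. Its catalytic subunit Sdha read 59.2, 61.3 and 56.2 FPKM under vehicle, 58.5, 57.5 and 58.6 under palbociclib, 73.1, 62.0 and 55.9 under anti-PD-1 and 68.4, 61.6 and 62.3 under the combination. The palbociclib effect on Sdha was 0.00 on the log2 scale with an interval from -0.16 to 0.16. Sdhb, its iron-sulfur partner, differed by 0.26 ± 0.10 (SE, limma adjusted p = 0.182), with all combination tumors (45.9, 46.3 and 44.6 FPKM) above all vehicle tumors (43.3, 31.5 and 35.4). Sdhc and Sdhd, the membrane anchors, differed by 0.04 and 0.16.

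In complex III, 7 of 8 genes lay above 0, with a median of 0.12. Uqcr11, a small subunit, had the largest difference, 0.35 ± 0.12 (SE, limma adjusted p = 0.146), and read 41.3, 31.8 and 34.4 FPKM under vehicle and 48.8, 53.9 and 45.1 under the combination. Palbociclib alone gave 31.0, 45.1 and 42.2, which overlapped the vehicle tumors, and anti-PD-1 27.8, 34.5 and 37.7. Uqcrq, named for its low p after the values were seen, differed by 0.31 (limma adjusted p = 0.105). The Rieske protein gene Uqcrfs1 differed by 0.09 (95% interval -0.04 to 0.22) and the large core protein gene Uqcrc2 by -0.09 (-0.26 to 0.09).

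In complex IV, which reduces oxygen to water, 9 of 11 described genes lay above 0, with a median of 0.20. Cox5a, a matrix-side subunit, had the largest difference, 0.32 ± 0.11 (SE, limma adjusted p = 0.156). Its vehicle tumors read 83.1, 55.7 and 72.1 FPKM, the palbociclib tumors 81.3, 93.2 and 112, the anti-PD-1 tumors 81.3, 89.9 and 75.8 and the combination tumors 86.7, 97.0 and 97.2. Vehicle replicate 2 was the lowest tumor of the series for this gene, and the combination tumors lay above all 3 vehicle tumors.

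Cox8a, the most abundant gene of complex IV, read 234, 212 and 246 FPKM under vehicle, 209, 257 and 265 under palbociclib, 158, 239.8 and 255 under anti-PD-1 and 268, 284 and 266 under the combination. The palbociclib effect was 0.22 ± 0.12 (SE, limma adjusted p = 0.331), and anti-PD-1 replicate 1 lay far below all other tumors.

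Cox7c and Cox7a2l ran against the rest. Cox7c read 2.42, 4.16 and 3.64 FPKM under vehicle, 2.49, 2.64 and 3.29 under palbociclib, 2.37, 3.72 and 3.43 under anti-PD-1 and 1.95, 2.91 and 2.42 under the combination, a difference of -0.31 ± 0.17 (SE, limma adjusted p = 0.317). Cox7a2l, a supercomplex assembly factor picked out after its values were seen, differed by -0.15 (limma adjusted p = 0.476) and read 146, 181 and 182 under vehicle and 133, 131 and 146 under palbociclib. It read 109.8, 169.5 and 159.9 under anti-PD-1 and 158, 147 and 131 under the combination.

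For both genes, the 4 tumors with the highest hypoxia gene sums (559 to 712 FPKM) were the 4 highest tumors of the series. Hypoxia sums ran from 142 to 712 under vehicle, 110 to 252 under palbociclib, 98.6 to 577 under anti-PD-1 and 153 to 206 under the combination. The part of hypoxia in the differences of these genes was not tested.

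In complex V, 13 of 16 described genes lay above 0, with a median of 0.13. Atp5k, subunit e of the membrane part, had the largest difference, 0.43 ± 0.16 (SE, limma adjusted p = 0.182). It read 63.6, 36.0 and 41.8 FPKM under vehicle, 40.1, 59.8 and 69.9 under palbociclib, 36.9, 50.1 and 43.1 under anti-PD-1 and 65.3, 69.0 and 60.7 under the combination. Vehicle replicate 1 lay within the combination range, so the arms overlapped.

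Atp5j, coupling factor 6 of the stalk, had the lowest p of the described genes and was named after its values were seen. Its vehicle tumors read 15.2, 11.3 and 13.5 FPKM and its combination tumors 17.4, 16.6 and 16.2, and the palbociclib effect was 0.35 ± 0.09 (SE, limma adjusted p = 0.101). Without vehicle replicate 1, 4 members passed the adjusted threshold in the palbociclib effect: Atp5j (adjusted p = 0.0426), Ndufa3 (0.0456), Ndufa5 (0.0494) and a pseudogene (0.0344). In that same fit 4.51% of all genes passed.

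The 5 genes of the F1 part, where ATP is made, had a median of 0.06, beside 0.26 for the 11 other complex V members, classes chosen after the values were seen. The classes overlapped, with ranges of -0.06 to 0.39 and -0.29 to 0.43. Atp5b read 226, 239 and 238 FPKM under vehicle, 226.5, 229 and 253 under palbociclib, 297, 265 and 247 under anti-PD-1 and 239, 259.7 and 239.8 under the combination, and its palbociclib effect was -0.06 (95% interval -0.21 to 0.10). Atp5l, subunit g, was the gene of complex V with the lowest difference, -0.29 ± 0.12 (SE, limma adjusted p = 0.198). Its palbociclib tumors (3.98, 4.08 and 4.13 FPKM) lay below all vehicle tumors (6.07, 6.35 and 5.50), whereas the anti-PD-1 tumors (4.29, 6.96 and 5.39) and the combination tumors (5.38, 4.56 and 6.04) overlapped them. Processed copies of this gene exist among the members as pseudogene symbols, so its level is uncertain.

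The combination showed the most even shift. Against vehicle, 67 of the 75 described genes had a difference above 0, with a median of 0.21 beside 0.03 over all genes. Of all 15350 genes tested, 8234 lay above 0. At an unadjusted p under 0.05, 14 members (16.7% of those tested) were higher where 8.64% of all genes were, and 0 lower where 8.31% were. All 3 combination tumors lay above all 3 vehicle tumors for 30 of the 84 members (35.7%), beside 10.8% of all genes, and below them for 0, beside 11.6%.

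These 30 genes held 13 of complex I, 3 of complex II (Sdha, Sdhb and Sdhd), 2 of complex III, 5 of complex IV and 7 of complex V, and all were described genes. Leaving out any 1 of the 6 tumors gave 30 to 51 of the 75 described genes, beside 13.9% to 23.7% of all genes. The largest differences were those of Atp5g1, 0.57, and Ndufa5, 0.56, and the lowest adjusted p of any described gene by limma was 0.184. The comparison shares its vehicle tumors with the other 2 arms. The vehicle tumor whose members lay nearest to the combination tumors by their median was replicate 1. Its hypoxia gene sum (142 FPKM) was close to theirs (153 to 206), whereas vehicle replicates 2 and 3 had 712 and 559. Its skeletal muscle sum was 73.0 FPKM, against 2.08 and 2.51 in vehicle replicates 2 and 3 and 2.63 to 203 under the combination. The palbociclib tumors had hypoxia sums of 252, 235.5 and 110 FPKM and member medians of -0.16, 0.02 and 0.24. The anti-PD-1 tumors had hypoxia sums of 98.6, 559.7 and 577 FPKM and member medians of -0.13, -0.01 and -0.13. The part of hypoxia or of muscle in the shift was not tested.

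With anti-PD-1 alone the genes leaned to neither side. The median difference was -0.01, beside -0.03 over all genes, with 36 genes above 0 and 39 below. Of all 15350 genes tested, 6757 lay above 0 and 8507 below. At an unadjusted p under 0.05, 0 members were higher (3.28% of all genes) and 3 were lower (5.11%): Cox6c, Ndufa7 and a pseudogene. Anti-PD-1 tumors lay above all vehicle tumors for 1 member, Atp5b, beside 4.25% of all genes, and below them for 5, Cox6c, Ndufa1, Ndufa7, Ndufb11 and a pseudogene, beside 7.09%.

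Cox6c gave the lowest interaction p of a described gene, 0.0385 unadjusted (limma adjusted p = 0.866), with 18.5, 15.5 and 15.1 FPKM under vehicle and 10.5, 12.8 and 14.0 under anti-PD-1. For the interaction of the agents, 57 of the 75 described genes lay above 0, with a median of 0.12 beside -0.01 over all genes. Of all 15350 genes tested, 7401 lay above 0. Of the tested members, 1 was higher and 1 lower at an unadjusted p under 0.05, beside 2.39% and 3.34% of all genes. No member passed the adjusted threshold for the interaction, which does not show that palbociclib acted alike with and without the antibody.

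Anti-PD-1 replicate 1 stood apart in a way that split the members by exon length, the bases covered by any annotated exon of a gene. In it the 17 members with an exon length under 1000 bases had a median deviation of -0.29, while the 18 members of 3000 bases or more had one of 0.08. In the other anti-PD-1 tumors both classes lay between -0.13 and 0.00. Atp5e, an F1 subunit gene with an exon length of 1756 bases and so in neither class, read 13.3 FPKM there and 24.6 to 40.8 in all other tumors. Without this tumor the median palbociclib effect over the 75 genes was 0.15.

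Length also ordered the palbociclib effect. Exon length, from GENCODE M21, was found for 73 of the 75 genes, and across these genes its Spearman correlation with the effect was -0.31, given as a description since genes are not independent replicates. The median effect was 0.21 under 1000 bases, 0.16 at 1000 to 1999, 0.13 at 2000 to 2999 and 0.12 at 3000 or more. Other protein-coding genes with a mean of at least 10 FPKM gave 0.16, 0.15, 0.11 and 0.02 in the same classes (135, 584, 785 and 2902 genes).

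In the 3 shorter classes the members thus lay within 0.05 of other genes of their exon length, and in the longest class 0.12 against 0.02. The members had to reach a mean of only 1 FPKM, so members and other genes were not matched in level. In the longest class Ndufb2, Atp5g1, Atp5l and Ndufb5 had means of 1.75, 2.89, 5.23 and 7.89 FPKM. Exon length joins all annotated exons of a gene, so a gene read from short transcripts can fall in a long class. Atp5l (6443 bases) and Atp5j (3130 bases) were in the longest class, and the length of the transcripts read was not measured. In the combination against vehicle, members gave 0.27, 0.24, 0.10 and 0.14 in the 4 classes and other genes 0.19, 0.21, 0.15 and 0.02. Exon length moved with the result, and the part of length was not tested.

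**Figure D4:**
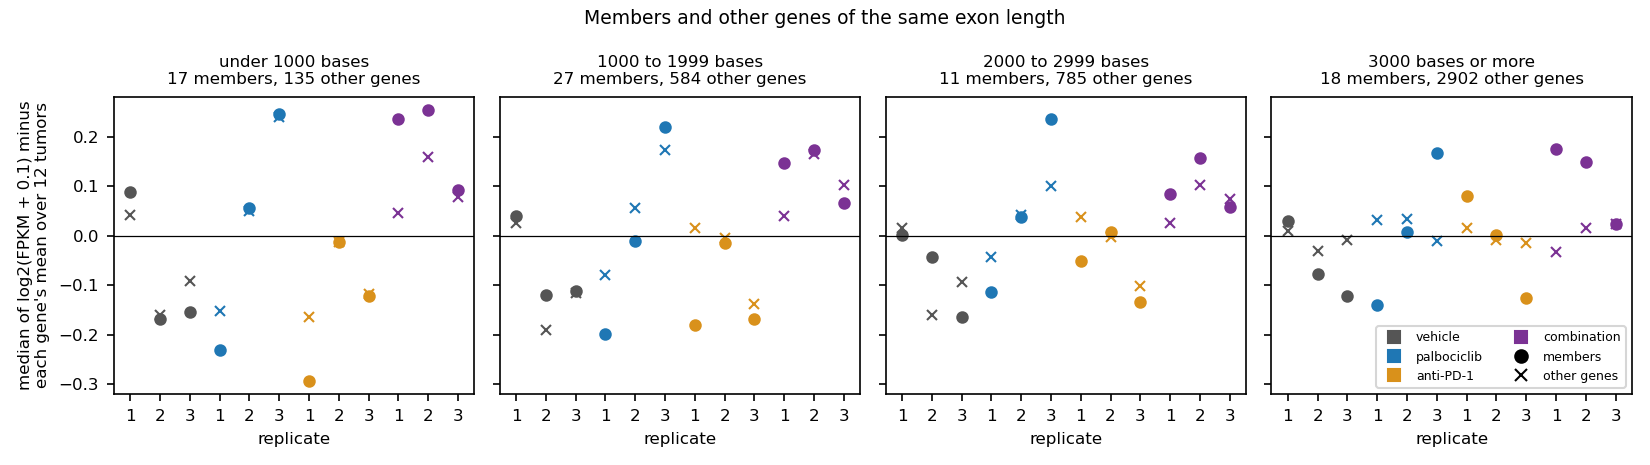
Median deviation of members with a mean of at least 1 FPKM (circles) and of other protein-coding genes with a mean of at least 10 FPKM (crosses) in each tumor, in log2(FPKM + 0.1), by exon length. Under 1000 bases circles and crosses differ by less than 0.1 in 10 of 12 tumors, and at 3000 bases or more the crosses stay between -0.03 and 0.03 while the circles range from -0.14 to 0.17.

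The muscle isoforms of complex IV were rare in these tumors. Cox8b (chromosome 7, 140898945 to 140900446) read 0.535 FPKM in vehicle replicate 1, 4.09 and 1.33 in palbociclib replicates 1 and 3, and 9.83 and 0.805 in combination replicates 1 and 2. It was listed at 0 in the other 7 tumors, including all 3 that received anti-PD-1 alone, so no fold is given. The palbociclib effect had a limma adjusted p of 0.214.

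The 2 tumors highest in Cox8b were those with the highest adipocyte marker sums (1049 and 436 FPKM), with all 9 adipocyte markers above 0 in both, and their skeletal muscle sums were 2.63 and 3.34. The brown fat marker Ucp1 read at most 0.0818 FPKM in any tumor and was listed at 0 in combination replicate 1, while Cidea, which brown fat and other adipocytes express, read 3.49 there and 1.06 in palbociclib replicate 1. Even at its highest, Cox8b made up 3.54% of the Cox8a and Cox8b FPKM, with about 57 fragments behind it at the depth estimated from the steps between low values. The part of fat tissue in the Cox8b values was not tested.

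Cox6a2 (chromosome 7, 128205435 to 128206387), the heart and skeletal muscle form of subunit VIa, read 0.949, 0.382 and 0.943 FPKM under vehicle, 0.725, 0.495 and 3.99 under palbociclib, 0.691, 0.901 and 0.556 under anti-PD-1 and 0.459, 1.71 and 0.998 under the combination. The 2 highest tumors, palbociclib replicate 3 and combination replicate 2, were also those with the highest skeletal muscle sums, in which Acta1, the skeletal muscle actin, read 90.7 and 83.2 FPKM and all 19 markers were above 0. Vehicle replicate 1, with Acta1 at 24.9, had a Cox6a2 level close to that of vehicle replicate 3, where Acta1 read 0.241. The palbociclib effect was 0.51 ± 0.47 (SE, limma adjusted p = 0.553), and the part of muscle tissue in it was not tested.

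Cox7a1 (chromosome 7, 30184144 to 30186078), the muscle form of subunit VIIa, read 0.677 to 2.82 FPKM and in every tumor 0.660% to 2.31% of the sum with Cox7a2. Its highest tumor was palbociclib replicate 3 and its lowest vehicle replicate 3. Unlike the other muscle forms it had no tumor far above the rest, and the palbociclib effect was 0.42 ± 0.29 (SE, limma adjusted p = 0.423).

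The general partners carried nearly all of the signal. Cox6a1 read 139, 131 and 128 FPKM under vehicle, 121, 137 and 176 under palbociclib, 92.6, 152 and 142 under anti-PD-1 and 168, 179.5 and 167 under the combination, a palbociclib effect of 0.28 (limma adjusted p = 0.249). Cox7a2 differed by 0.21 (adjusted p = 0.286), from a mean of 105 FPKM. For Cox4i1, the general form of subunit IV, the difference was 0.20 (adjusted p = 0.227). Its hypoxia-inducible lung form Cox4i2 stayed between 0.404 and 1.25 FPKM, at most 1.23% of the pair, and its difference was -0.04 with an interval from -0.65 to 0.57.

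**Figure D5:**
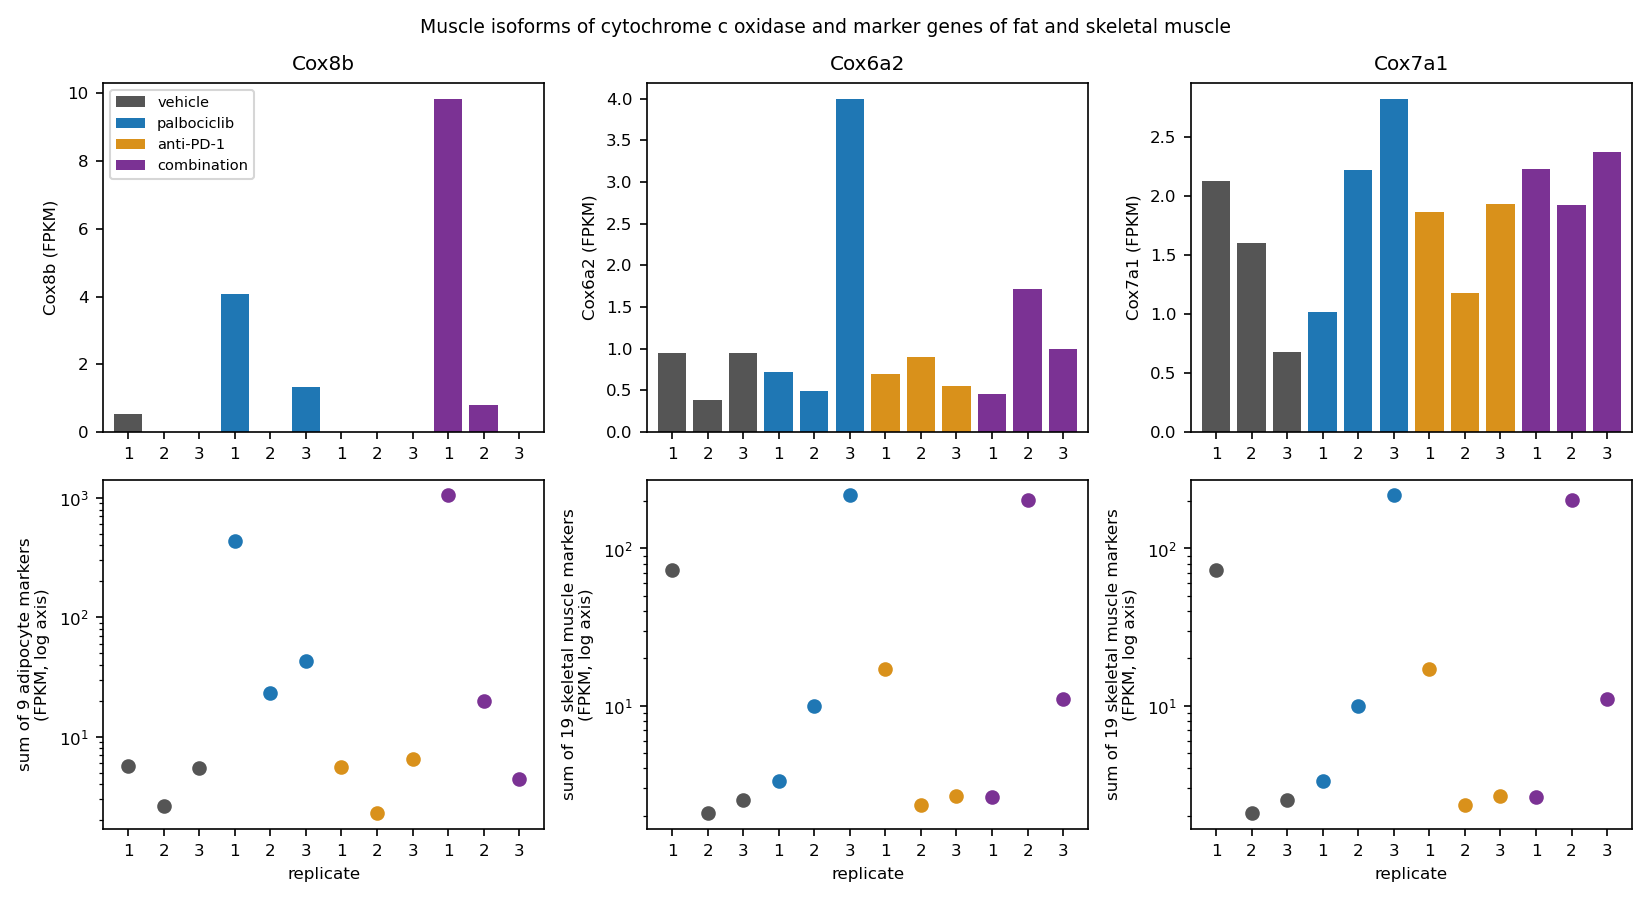
Upper row, FPKM of Cox8b, Cox6a2 and Cox7a1 in each tumor (bars, colored by arm). Lower row, summed FPKM of 9 adipocyte markers and of 19 skeletal muscle markers in the same tumors on a log axis. Cox8b peaks in the 2 tumors with adipocyte sums of 1049 and 436 FPKM, and Cox6a2 in those with muscle sums of 217 and 203.

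Subunits outside the symbol rule and assembly factors were followed as companions. Of 8 further subunit and partner genes, 5 lay above 0 in the palbociclib effect, with a median of 0.14, and 0 passed the adjusted threshold by limma (1 higher and 1 lower at an unadjusted p under 0.05, beside 14.1% and 6.44% of all genes). Cyc1, the cytochrome c1 of complex III, read 82.6 ± 17.3 FPKM (SD, n = 3) under vehicle and 101 ± 7.31 under the combination. Ndufa4l2, a hypoxia-inducible relative of Ndufa4, had the lowest difference, -0.64 (limma adjusted p = 0.203), and read 2.62, 1.69 and 2.77 FPKM under vehicle and 1.17, 1.15 and 0.643 in the combination.

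Of 46 assembly factors, which insert cofactors and join subunits, 40 lay above 0, with a median of 0.16, and 0 passed the adjusted threshold by limma. At an unadjusted p under 0.05, 6 were higher and 0 lower, beside 14.1% and 6.44% of all genes. Uqcc2, a complex III assembly factor, was the most abundant and read 39.4 to 68.0 FPKM. Pet117, which serves complex IV assembly, had the lowest difference, -0.96, on levels of 0.226 to 4.16 FPKM.

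The subunits encoded in mitochondrial DNA could be read only in part. Of 13, mt-Co2, mt-Co3, mt-Atp6 and mt-Atp8 stayed under 1 FPKM in all tumors but for mt-Co2 at 6.95 in anti-PD-1 replicate 1. mt-Co1, the catalytic subunit of complex IV, was listed at 0 in vehicle replicate 3 and palbociclib replicate 2 beside 6467 to 10226 FPKM elsewhere, and mt-Nd4 at 0 in anti-PD-1 replicate 1, where mt-Nd4l read 1323 and at most 10.5 elsewhere. Such zeros in genes that every cell uses are taken as failed estimates.

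mt-Nd1, a complex I subunit, was complete. It read 1317, 422 and 795 FPKM under vehicle, 1122, 991 and 1184 under palbociclib, 1430, 742 and 765 under anti-PD-1 and 1717, 1131 and 1118 under the combination. Vehicle replicate 2 was lowest here, as in mt-Nd2, mt-Nd5 and mt-Cytb, and the arms overlapped. Among the 5 mitochondrial genes above 1 FPKM in all tumors, chosen after their values were seen, the palbociclib effect was 0.62 for mt-Nd5, 0.61 for mt-Nd2, 0.50 for mt-Nd1, 0.42 for mt-Cytb and -0.01 for mt-Nd6, with limma adjusted p from 0.215 to 0.993. No count over the mitochondrial genes is given because the listed zeros enter it.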

How the data were processed

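RNA from 12 tumors, 3 in each of 4 arms, had been sequenced and aligned by the authors with HISAT2 to GRCm38/mm10, per the submitters' processing notes; the counting tool and annotation are not given in the sources used here. The deposited values are FPKM per gene symbol (34745 entries, 34678 symbols; of a repeated symbol the entry with the highest mean was kept, and no member was repeated). FPKM hold no counts. The steps between low values put depth between 14871774 and 20272649 fragments per tumor if the smallest step is 1 fragment; a second step leaves a factor of 2 open.

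Differences were fitted with limma 3.58.1 (R 4.3.3, eBayes with trend) on log2(FPKM + 0.1), which understates changes of low genes, over genes with a mean of at least 0.1 FPKM, with Benjamini-Hochberg adjustment and a threshold of 0.05. The fit was tested on simulated data. Genes are named by rule: per complex the most abundant, the highest and the lowest in the palbociclib effect, and the muscle isoforms with partners; of other lists at most the 2 extreme or most abundant genes, and others are said to be chosen after their values were seen. 1 described gene counts in all summaries but is not reported by name or drawn here. Members, lists and tests were chosen with earlier results of these data known. Alternatives were other pseudocounts, filters and scalings, no trend, a replicate block, fits of 2 arms and leaving out each tumor. Exon lengths came from GENCODE M21 (GRCm38), and tables and figures were made with pandas 2.3.3 and matplotlib 3.10.9.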

Additional observations from a re-analysis of the deposited data

How the results depend on the processing

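No member passed the adjusted threshold in palbociclib, anti-PD-1 or the combination against vehicle under any alternative run, nor in the palbociclib effect except without vehicle replicate 1, so that leaving out each tumor gave 0 to 4 calls there. The median difference of the 75 described genes moved by less than 0.14 on the log2 scale, the SD between tumors of an arm, under every alternative. It kept its sign in the palbociclib effect (0.09 to 0.21) and the combination (0.13 to 0.28), but ranged from -0.02 to 0.19 in palbociclib against vehicle and from -0.05 to 0.05 with anti-PD-1 when each tumor was left out. Leaving out each tumor, Sdha ranged from -0.045 to 0.052 and Cox4i2 from -0.22 to 0.14 in the palbociclib effect, with both signs. Counts of described genes above every vehicle tumor, recomputed without each tumor after the data were seen, ran from 30 to 51 in the combination and from 1 to 26 with palbociclib alone, where vehicle replicate 1 and palbociclib replicates 1 and 2 gave 15, 26 and 3 of 75 (20%, 34.7% and 4%) beside 27.5%, 20.9% and 16.8% of all genes. With fewer tumors in a comparison such counts rise by construction; the cause of the other changes was not tested.

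Same-numbered tumors of different arms correlated at -0.213 to 0.453 in their deviations (median 0.0277). Tumors with other numbers correlated at -0.353 to 0.309 (median -0.0131). Such correlations cannot tell whether the replicate numbers carry a pairing or a batch. With a replicate block 0 members were called in any comparison, and the median palbociclib effect stayed at 0.16. Over all genes the calls in the palbociclib effect moved from 48 to 129 with the block, 0 without the trend, 11 without a filter, 70 with a mean of at least 1 FPKM, and 0 to 758 when each tumor was left out (692, 758 and 264 without vehicle replicate 1, anti-PD-1 replicate 1 and combination replicate 2), and those in palbociclib against vehicle from 22 to between 0 and 51 over the alternatives. FPKM without counts give no counting error for the low genes.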

Other observations

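The mitochondrial ribosome, which translates the subunits encoded in mitochondrial DNA, had a median palbociclib effect near that of the OXPHOS genes; no test compared the lists. Of its 74 genes, 68 lay above 0 in the palbociclib effect, with a median of 0.16 beside 0.06 over all genes, and 0 passed an adjusted p of 0.05 by limma, whose lowest value here was 0.0885. At an unadjusted p under 0.05, 26 were higher and 0 lower, beside 14.1% and 6.44% of all genes. The lists were less alike elsewhere: the median was 0.16 for the ribosome and 0.09 for the OXPHOS genes in palbociclib against vehicle, 0.08 and -0.01 under anti-PD-1, and -0.003 and 0.12 in the interaction. Mrpl42, the most abundant, read 158, 106 and 118 FPKM with vehicle and 176, 188 and 165 with the combination, where all 3 tumors lay above the vehicle tumors. Mrpl24 lay at the lower end, with 15.7, 17.1 and 16.7 with vehicle and 12.9, 14.2 and 11.9 with the combination.

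Of 16 citrate cycle genes, 14 lay above 0 with a median of 0.07, and 0 passed by limma or at an unadjusted p under 0.05, where 14.1% of all genes were higher and 6.44% lower. Cs, citrate synthase, read 137, 140 and 148 FPKM with vehicle, below all 9 treated tumors, whose lowest was 154. Regulators of mitochondrial biogenesis went both ways: of 12 tested, 6 lay above 0 and 6 below, with a median of 0.01 and a range from -0.23 to 0.63. Ppargc1a, a main coactivator of respiratory genes, read at most 0.0965 FPKM, whereas Yy1, the most abundant, read 24.3 to 32.7. By limma 0 of them passed the adjusted threshold, and 1 was higher and 2 lower at an unadjusted p under 0.05, beside 14.1% and 6.44% of all genes.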
